A study of Mus musculus with 12 samples.

Results

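Prph2, Rom1, Prom1, Cdhr1, Rp1, Rp1l1, Tulp1, Impg1, Impg2 and Fam161a encode proteins of the photoreceptor outer segment, of its axoneme and cilium, and of the matrix around it. These 10 genes were chosen by name, and each had 1 entry among the 56748 of the deposited table of scaled counts and 1 among the 55372 of the deposited TPM table. TPM is the share of all messages taken by a gene, corrected for its length, and is the unit used here to compare levels between genes.

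RNA was sequenced from 2-month-old mice of 2 genotypes. The knockout mice (RiboTag, Abca4-/-, i75-Rod-Cre, named Abca4Ko here) lack Abca4, the outer segment transporter that clears retinoid from disc membranes, and their littermate controls (RiboTag, i75-Rod-Cre) carry both other alleles. In all 4 groups the Cre, which is driven by rhodopsin promoter sequence, turns on an HA-tagged ribosomal protein in rods. Per genotype, 3 libraries came from the retinal lysate (retina) and 3 from the messages pulled down with the tagged ribosomes (rod TRAP, translating ribosome affinity purification), with cycloheximide in the perfusate to stall translation. Sex is not given, the labels do not say whether the replicates are separate animals, and p-values therefore measure the spread between these libraries, which may be technical.

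The libraries were checked first against their labels and cell type markers. Abca4 stood at 0.349% to 0.958% of the control mean in 4 of the 6 Abca4Ko libraries, but at 23.5% in rod TRAP and 21.3% in retina in the libraries labelled Abca4Ko replicate 3. The summed level of 15 rod markers was 226981 to 258711 CPM (the scaled count as a share of the library total divided by the library's trimmed mean of M values factor, which was 0.818 to 0.844 in rod TRAP and 1.062 to 1.338 in retina) in rod TRAP and 67333 to 126089 CPM in retina, while 10 Müller glia markers summed to 175 to 271 CPM against 3931 to 5917 CPM. The summed markers of bipolar cells (303 to 406 against 473 to 860 CPM), amacrine cells (37.8 to 49.0 against 597 to 916), horizontal cells (0.858 to 3.20 against 33.7 to 48.4), ganglion cells (9.44 to 16.9 against 504 to 683), pigment epithelium (4.22 to 10.1 against 76.0 to 352), microglia (0.489 to 0.924 against 28.2 to 48.7), vessels (6.31 to 10.2 against 82.6 to 194) and blood (1.66 to 5.87 against 42.3 to 147) were likewise lower in rod TRAP than in retina. Among the bipolar markers Prkca was higher in rod TRAP (log2 fold change 1.57 in control and 0.99 in Abca4Ko), while the other 7 were lower. Cone markers summed to 510 to 717 CPM in rod TRAP against 1177 to 1775 CPM in retina. Their median log2 fold change was -1.50 in control and -0.72 in Abca4Ko, beside -4.28 and -4.52 for Müller glia, and Cngb3 was higher (0.88 and 0.75). Lens markers differed between libraries and not by group, at 9449 CPM in retina control replicate 1, 2924 and 3844 CPM in retina Abca4Ko replicates 2 and 3, and 6.86 to 33.9 CPM in the other 3 retina libraries. In rod TRAP the same numbers were high, at 77.4 CPM in control replicate 1 and 98.3 and 77.6 CPM in Abca4Ko replicates 2 and 3. The rest of the rod TRAP libraries stood at 1.00 to 2.49 CPM. Lim2 was at 0 in all groups, and the part of lens messages in the results below was not tested.

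As background, a rod renews its outer segment throughout life by adding discs at the base. Prominin-1 (Prom1) and the photoreceptor cadherin Cdhr1 sit on the forming discs, and the tetraspanin peripherin-2 (Prph2) with its paralog Rom1 shapes the rim of the closed disc. RP1 and its paralog RP1L1 bind the microtubules of the axoneme, FAM161A belongs to the connecting cilium, and TULP1 takes part in carrying proteins toward the outer segment. Impg1 and Impg2 encode proteoglycans of the interphotoreceptor matrix, the gel that fills the space between the outer segments and the pigment epithelium. Mutations in these genes are known from inherited retinal dystrophies in humans.

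The start regions of the 2 disc rim paralogs and the 2 matrix paralogs are shown because these pairs are followed side by side below. Each is the 250 bases before the RefSeq start, 5′ to 3′ on the gene's strand, with capitals at every TAATC or its reverse GATTA, the short core that photoreceptor homeodomain factors of the CRX family bind. Coordinates are those of GRCm38.p6, the build of the RefSeq table, and not of the build of the measurements. They are chr17:46910228-46910477 (plus strand) for Prph2, chr19:8929357-8929606 (minus strand) for Rom1, chr9:80465439-80465688 (minus strand) for Impg1 and chr16:56204063-56204312 (plus strand) for Impg2.
Prph2: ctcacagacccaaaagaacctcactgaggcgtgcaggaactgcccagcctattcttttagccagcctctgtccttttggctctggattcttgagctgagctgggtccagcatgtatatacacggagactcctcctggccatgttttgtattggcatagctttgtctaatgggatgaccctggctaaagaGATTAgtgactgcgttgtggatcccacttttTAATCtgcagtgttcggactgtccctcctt
Rom1: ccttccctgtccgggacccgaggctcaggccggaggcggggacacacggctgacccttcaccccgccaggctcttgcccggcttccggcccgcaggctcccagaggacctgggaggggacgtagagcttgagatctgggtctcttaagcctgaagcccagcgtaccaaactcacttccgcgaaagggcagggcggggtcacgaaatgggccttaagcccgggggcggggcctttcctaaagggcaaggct
Impg1: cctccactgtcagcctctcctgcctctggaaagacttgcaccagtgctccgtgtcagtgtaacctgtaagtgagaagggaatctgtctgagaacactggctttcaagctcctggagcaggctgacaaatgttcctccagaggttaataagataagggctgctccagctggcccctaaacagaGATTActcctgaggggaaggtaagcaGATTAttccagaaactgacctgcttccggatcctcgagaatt
Impg2: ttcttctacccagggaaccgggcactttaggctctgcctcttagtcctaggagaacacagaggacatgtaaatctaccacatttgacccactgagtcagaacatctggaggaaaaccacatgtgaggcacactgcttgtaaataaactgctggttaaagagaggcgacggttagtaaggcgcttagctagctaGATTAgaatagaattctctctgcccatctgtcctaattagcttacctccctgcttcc

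Prph2 holds 2 of these matches, at 61 and 30 bases before the start, Impg1 holds 2, at 68 and 42 bases, and Impg2 holds 1, at 57 bases, while Rom1 holds none. Of the 2 start regions of Prom1, 1 holds a match as well, at 28 bases. Over the 10 start regions that RefSeq lists for 8 of the genes, 4 (40.0%) held TAATC on either strand, against 19.8% of all 32851 mouse start regions of that length. The longer CRX core TAATCC, which contains TAATC, was in 0 of the 10 and in 6.25% of all, and TGCTGA, the first letters of the NRL site, was in 0 of the 10 and in 16.1% of all. Among the start regions of 9 rod markers, 4 held TAATCC, 2 held TGCTGA and 6 (66.7%) held TAATC, a larger share than among the members. The shorter TAATC was searched for after the longer core had given no match, and such a match is a string of letters and not a site. Rom1 had the highest GC content of the 10 start regions, 66.8%, and Prph2 stood at 49.6%.

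The members covered a wide range of levels, and the order of the disc genes was the same in every group. In control rod TRAP, Prph2 stood at 11022, 10958 and 11133 TPM in replicates 1 to 3 and Rom1 at 7657, 7369 and 7620 TPM. Tulp1 followed with a mean of 2791 ± 214 TPM (SD, n = 3), Cdhr1 with 1762 ± 12.0 and Prom1 with 1007 ± 81.0. Rp1 had 874 ± 28.4, Impg1 793 ± 51.1, Rp1l1 535 ± 36.3, Impg2 344 ± 31.7 and Fam161a 247 ± 7.92 TPM. The library ranges of neighbours in this order were apart except for Rp1 and Impg1, which did not differ beyond their spread. Together the 10 genes made up 2.69 ± 0.0503% of all TPM in control rod TRAP and 2.64 ± 0.0798% in Abca4Ko rod TRAP, against 1.48 ± 0.0531% and 1.34 ± 0.125% in the retina libraries.

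In control retina, Prph2 (6637 ± 343 TPM), Rom1 (4679 ± 391), Tulp1 (1845 ± 17.3) and Cdhr1 (838 ± 11.8) again came first and did not overlap. The next 4, Rp1l1 (265 ± 41.7), Prom1 (239 ± 68.2), Impg1 (148 ± 35.7) and Fam161a (117 ± 30.8), overlapped each with the next. Rp1 came next with 50.9, 52.1 and 30.2 TPM, and Impg2 last with 39.4, 36.7 and 22.6 TPM, and their ranges overlapped. Rp1 was thus above Rp1l1 in rod TRAP and below it in retina. In the Abca4Ko libraries the first 4 genes had the same order in both fractions, and from Impg1 down in rod TRAP and from Prom1 down in retina most neighbours overlapped.

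**Figure D1:**
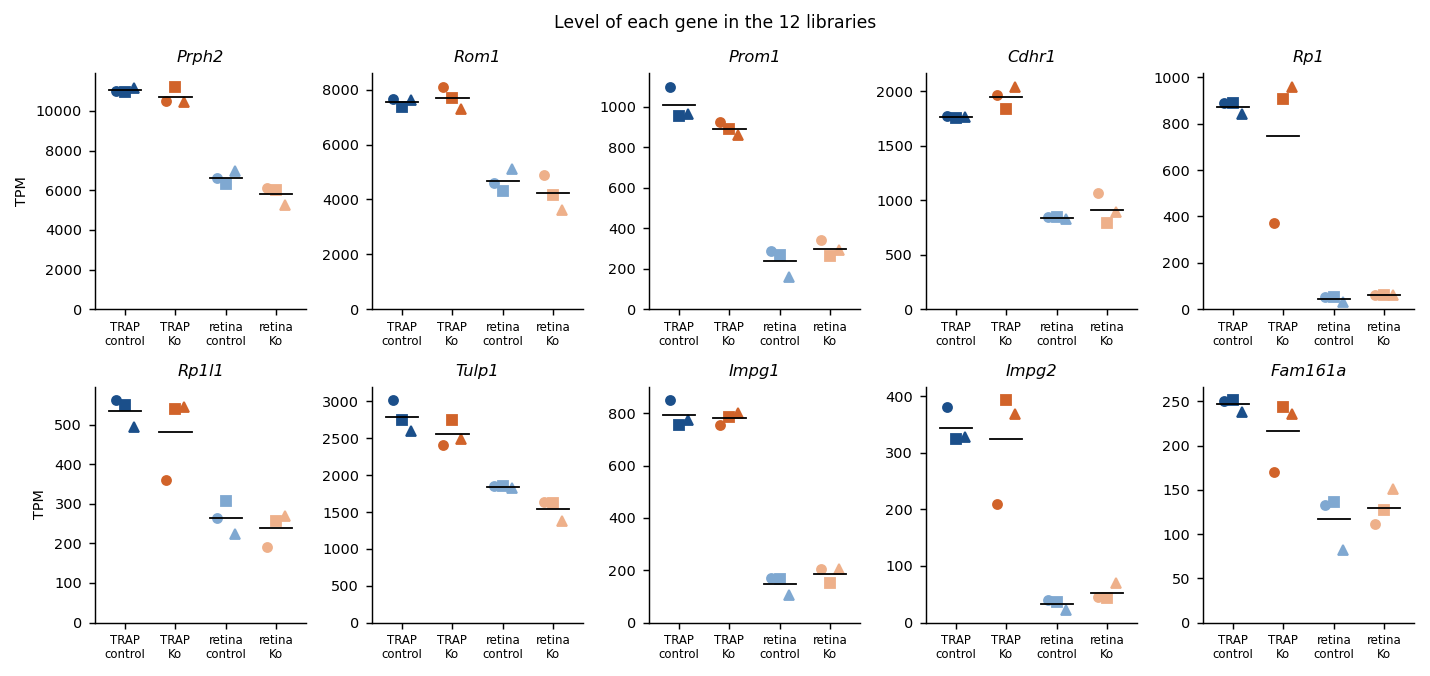
Level of each gene in TPM (y axis, linear, from 0) in the 4 groups (x axis), with circles, squares and triangles for replicates 1, 2 and 3 and a line at the mean. All 10 genes were higher in the rod TRAP libraries than in the retina libraries, and rod TRAP Abca4Ko replicate 1 lay low for Rp1 (370 TPM), Rp1l1 (361), Impg2 (209) and Fam161a (170).

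The comparison of rod TRAP with retina asks which messages are held by rod ribosomes more than their share of the lysate. In control mice all 10 genes rose, with no overlap between the 3 rod TRAP and the 3 retina libraries, where 36.6% of the 16286 genes tested were called higher and 39.1% lay wholly above. These calls are from limma on log2(CPM + 0.5), with Benjamini-Hochberg adjustment over all genes tested and a threshold of 0.05. The log2 fold changes of the members ran from 0.92 to 4.65 with a median of 1.39, beside a median of -0.03 over all genes tested and of 1.35 (0.80 to 3.98) over the 15 rod markers, all of which also rose. RNA input also differed with the fraction, at 5 ng for retina and 10 ng for rod TRAP per the labels. Its part in the rises cannot be told apart from that of the pull-down.

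Among the axoneme and cilium genes, Rp1 rose most. Its libraries stood at 3825, 3853 and 3666 CPM in control rod TRAP and at 200, 170 and 118 CPM in control retina. That is a log2 fold change of 4.65 ± 0.16 (SE), 25.2-fold, the largest of the 16286 genes tested (limma adjusted p = 2.29e-10). Its paralog Rp1l1, with 2040, 2021 and 1805 CPM against 888, 850 and 762 CPM, rose by 1.32 ± 0.11. Fam161a rose by 1.40 ± 0.16 and Tulp1 by 0.92 ± 0.12, the least of the 10.

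Of the disc genes, Prom1 rose most, from 553, 414 and 300 CPM in control retina to 2275, 1987 and 1999 CPM in control rod TRAP, a log2 fold change of 2.43 ± 0.18. The rim genes rose by nearly the same amount, Prph2 by 1.07 ± 0.13 and Rom1 by 1.01 ± 0.13. Cdhr1, the cadherin of the forming disc, rose by 1.39 ± 0.11. The limma adjusted p of these 4 genes lay between 6.65e-08 and 1.53e-05.

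Both matrix proteoglycans rose by more than the rim genes. Impg2 stood at 1475, 1267 and 1306 CPM in control rod TRAP and at 136, 106 and 75.02 CPM in control retina, which gives 3.79 ± 0.18 on the log2 scale, rank 27 among the genes tested (limma adjusted p = 1.43e-09). Impg1 stood at 1666, 1485 and 1532 CPM against 306, 235 and 190 CPM, a rise of 2.79 ± 0.15.

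In the Abca4Ko mice all 10 genes again rose with no overlap, where 30.4% of 16036 genes tested were called higher and 33.7% lay wholly above. The comparison shares no library with the control one. The median of the members was 1.29, that of the rod markers 1.36 and that of all genes tested 0.0044. Rp1 (3.72 ± 0.30), Impg2 (2.87 ± 0.23), Impg1 (2.32 ± 0.22) and Prom1 (1.87 ± 0.24) came first, as in the control, and the other 6 lay between 0.92 and 1.35. The limma adjusted p of the 10 ran from 1.60e-06 to 0.00346. Rp1 had rank 3 among all genes tested. Without the rod TRAP library of Abca4Ko replicate 1 its value was 4.10.

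The rises depend on what the libraries are scaled to. Rod markers take a larger share of rod TRAP than of retina, so the libraries were also scaled to the 15 rod markers, which gives changes relative to other rod messages. On that scale Rp1 (3.30 ± 0.17), Impg2 (2.44 ± 0.19), Impg1 (1.44 ± 0.16) and Prom1 (1.08 ± 0.18) still rose in control mice, where 10.5% of genes tested were called higher and 74.9% lower. Prph2 (-0.28 ± 0.09), Rom1 (-0.34 ± 0.10) and Tulp1 (-0.43 ± 0.10) were then called lower (limma adjusted p 0.00178 to 0.0101). Cdhr1 (0.03), Fam161a (0.05) and Rp1l1 (-0.03) were not called. In the Abca4Ko mice the same 4 genes were called higher, with 2.39, 1.54, 0.99 and 0.53, where 2.06% of genes tested were, and the other 6 were not called (-0.42 to 0.01). The median of all genes tested moved to -1.26 in control and -1.22 in Abca4Ko on this scale.

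**Figure D2:**
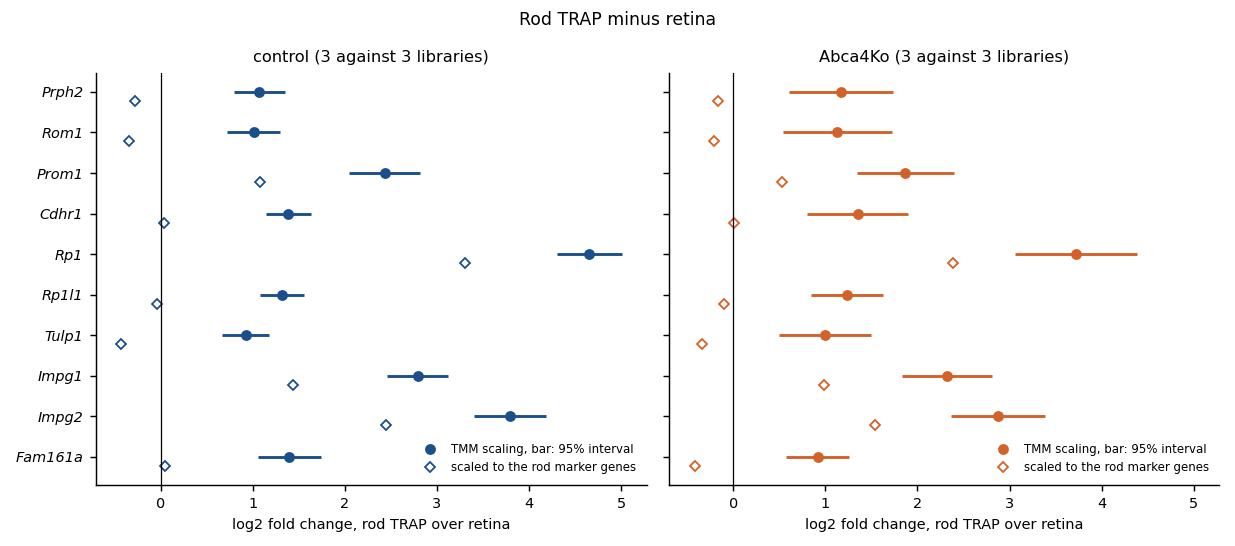
Log2 fold change of rod TRAP over retina (x axis) for the 10 genes (y axis) in control and Abca4Ko mice, with filled circles and 95% intervals for the main scaling and open diamonds for libraries scaled to the rod markers. Rp1, Impg2, Impg1 and Prom1 lay above 0 on both scales, and Prph2, Rom1, Tulp1 and, by little, Rp1l1 lay above 0 on the first and below 0 on the second. On the second scale Cdhr1 lay near 0 in both genotypes, and Fam161a lay near 0 in control and below 0 in Abca4Ko.

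The ratio of partner messages within a library needs no scaling between libraries. Prph2 over Rom1, in TPM, was 1.44, 1.49 and 1.46 in control rod TRAP and 1.43, 1.46 and 1.37 in control retina. Over all 12 libraries it stayed between 1.24 and 1.49, so the rim partners kept nearly the same proportion in both fractions. Impg1 over Impg2 was 2.24, 2.33 and 2.35 in control rod TRAP and 4.31, 4.54 and 4.71 in control retina, with no overlap. In Abca4Ko the libraries overlapped, with 3.61, 2.00 and 2.17 in rod TRAP and 4.598, 3.48 and 2.92 in retina. Rp1 over Rp1l1 differed most, at 1.58, 1.62 and 1.70 in control rod TRAP and at 0.193, 0.169 and 0.135 in control retina. In Abca4Ko it was 1.03, 1.67 and 1.76 in rod TRAP and 0.326, 0.243 and 0.224 in retina, again apart.

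**Figure D3:**
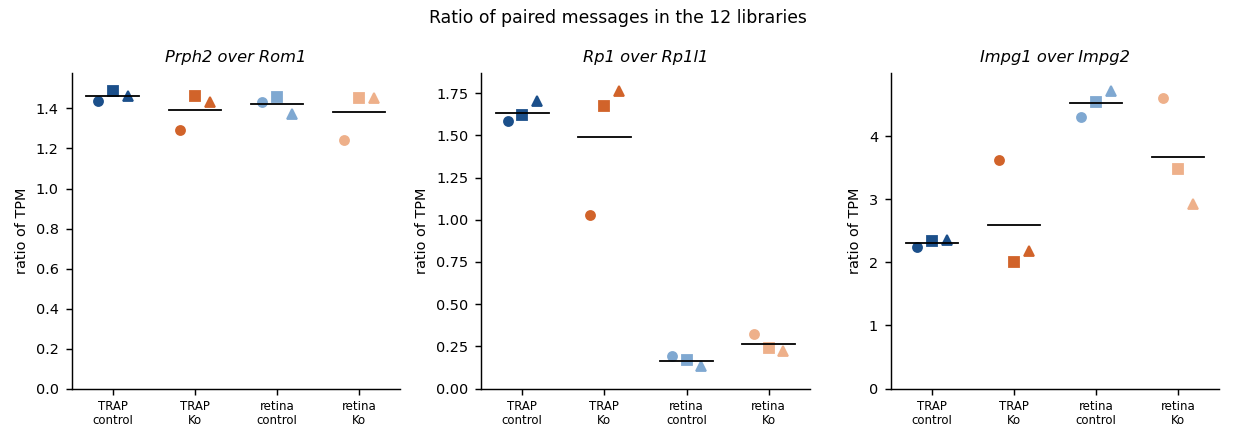
Ratio of TPM (y axis, linear, from 0) of 3 pairs of paralogs in the 4 groups, with circles, squares and triangles for replicates 1, 2 and 3 and a line at the mean. Prph2 over Rom1 stayed near its level in all groups, while Rp1 over Rp1l1 was higher and Impg1 over Impg2 lower in control rod TRAP than in control retina.

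Coding length went along with these values. By GENCODE M21 the longest coding sequence is 6285 bases for Rp1, 5577 for Rp1l1, 3729 for Impg2, 2601 for Prom1, 2577 for Cdhr1 and 2394 for Impg1, against 1684 for Fam161a, 1629 for Tulp1, 1053 for Rom1 and 1038 for Prph2. Across the 10 genes the log2 fold change in control mice had a Pearson r of 0.68 with log2 length and a Spearman rho of 0.71, given as a description over genes that share their libraries. Among all genes tested (81.8% with a length), the median was -0.21 for coding sequences under 1000 bases and 0.25 for those of 4000 bases or more, with quartiles of -1.71 and 1.68. Rp1l1, nearly as long as Rp1, rose by 1.32. The part of length in the rises was not tested.

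The wider lists of related genes moved as follows. Of 14 further disc genes, 4 of which are also in the rod marker list, 14 rose in control rod TRAP and 11 in Abca4Ko rod TRAP, with medians of 1.42 and 1.37. Among the larger rises in the control were those of Cnga1 (3.98), a subunit of the rod cyclic nucleotide-gated channel, the guanylate cyclase Gucy2f (3.84) and the flippase subunit Tmem30a (3.12). In Abca4Ko they included Cnga1 (3.14), Gucy2f (2.95) and the exchanger Slc24a1 (2.31). Pcare and Prcd, at 0.32 and 0.36, rose least in the control.

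Of 20 axoneme and cilium genes, 18 rose in each genotype, with medians of 1.63 and 1.10. Cep290, of the transition zone, rose by 4.51 in control and 3.77 in Abca4Ko, next to Rp2 (3.06 and 2.38), Arl13b (3.02 and 2.11) and Cep162 (2.96 and 2.39). Ift140 (0.13 and 0.24) and Wdr90 (-0.30 and -0.03) did not pass in either.

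Most of the other matrix genes tested fell, unlike Impg1 and Impg2. Of 9 tested in control, 3 rose and 6 fell, and of 9 in Abca4Ko, 3 rose and 5 fell, with medians of -2.62 and -2.46. Among those that fell were Efemp1, a fibulin of the extracellular matrix, with log2 fold changes of -5.11 and -4.67, the protease inhibitor Timp3 (-4.33 and -4.25), the hyaluronan receptor Cd44 (-3.35 and -3.77) and the proteoglycan Bcan (-3.11 and -2.88). Egflam (1.485 and 1.499), which encodes pikachurin of the photoreceptor synapse, Rbp3 (1.30 and 1.35), the retinoid-binding protein of the interphotoreceptor matrix, and Mfge8 (0.67 and 0.73) rose.

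The genotype comparison asks whether loss of Abca4 goes with a change in these messages. In rod TRAP, 0 of the 10 members were called, where limma called 1.13% of 13104 genes tested (148), and 0 of the 10 reached an unadjusted p under 0.05, against 10.4% of all genes. Log2 fold changes ran from -0.29 for Rp1 to 0.20 for Cdhr1, with a median of -0.07, and the limma adjusted p from 0.548 to 0.960.

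Prph2 stood at 10482, 11225 and 10440 TPM in Abca4Ko rod TRAP against 10958 to 11133 TPM in control, which is a log2 fold change of 0.02 with a 95% interval of -0.19 to 0.23. Rom1 stood at 8112, 7688 and 7288 TPM against 7369 to 7657, 0.09 (-0.16 to 0.34). Cdhr1 was the member nearest to a call, with 1967, 1836 and 2041 TPM in Abca4Ko and 1771, 1748 and 1766 TPM in control. Its libraries were all above those of the controls, as in 8.55% of genes tested, and its change was 0.20 (-0.03 to 0.42, limma adjusted p = 0.548). For Prom1 the libraries stood at 926, 890 and 862 TPM against 1101, 956 and 964, and on the CPM scale, where they overlapped, the change was -0.09 (-0.35 to 0.17).

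Rod TRAP Abca4Ko replicate 1 stood apart for Rp1, Impg2, Rp1l1 and Fam161a. Rp1 was at 370 TPM there, against 905 and 960 in the other Abca4Ko libraries and 841 to 891 in the controls, so that its change of -0.29 had an interval of -0.96 to 0.39. Impg2 was at 209 TPM against 393 and 369, and 324 to 381 in the controls, with a change of -0.06 (-0.40 to 0.28). Rp1l1 (361 TPM against 541 and 545) and Fam161a (170 against 244 and 236) were low there too, with changes of -0.10 and -0.16. Impg1 (755 TPM against 786 and 801) and Tulp1 (2410 against 2753 and 2497) were also lowest there in TPM, by less. On the CPM scale they were not the lowest there, with 1664 against 1506 and 1532 CPM for Impg1 and 3146 against 3157 and 2847 CPM for Tulp1. The summed level of the 20 further axoneme genes was 6307 CPM there against 5833 and 5569 CPM. In that library, genes with a coding length of 4000 bases or more lay 0.42 (median, log2) below the other Abca4Ko rod TRAP libraries and genes under 1000 bases lay 0.07 above, and the part of this in the members' values was not tested.

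Without that library, Rp1 changed to 0.06, Rp1l1 to 0.01 and Impg2 to 0.14, Prph2 (-0.06), Rom1 (-0.05) and Impg1 (-0.04) also changed sign, and calls over all genes rose from 148 to 594. Prom1 was then called lower, with -0.23 (limma adjusted p = 0.0367), as were 2.05% of genes tested, and it was the only member called in any fit of the genotype in rod TRAP. Without the library labelled Abca4Ko replicate 3, in which Abca4 was partly kept, 0 members were called. Cone markers moved in the same comparison, with 1 of 10 called higher, 8 of 10 at an unadjusted p under 0.05 and a summed level of 564 to 717 CPM in Abca4Ko and 510 to 610 CPM in control. The 15 rod markers had a median of 0.05 and 0 calls.

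In retina, 0 of the 10 members were called, where limma called 0.106% of 16964 genes tested (18). Unadjusted p-values under 0.05 were found for 2 of the 10, against 12% of all genes. Impg2 was at 44.8, 42.9 and 70.2 TPM in Abca4Ko and at 39.4, 36.7 and 22.6 TPM in control, with every Abca4Ko library above every control, as in 10.4% of genes, though on the CPM scale by little (137 against 136 CPM at the nearest). Its log2 fold change was 0.75 (95% interval 0.22 to 1.27, unadjusted p = 0.0098 and adjusted p = 0.400 by limma). Rp1 was at 62.2, 62.3 and 60.4 TPM against 50.9, 52.1 and 30.2 TPM. On the CPM scale of the test its libraries overlapped, and the change was 0.53 (0.03 to 1.03, adjusted p = 0.402 by limma).

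The changes of Impg2 and Rp1 stayed above 0 whichever library was left out, between 0.53 and 0.95 and between 0.33 and 0.70, and neither was called. Their lowest values came without retina control replicate 3, in which Impg2, Rp1, Prom1 (161 TPM), Impg1 (106.5 TPM) and Fam161a (81.6 TPM) were each the lowest of the 3 controls. Genes with a coding length of 4000 bases or more lay 0.45 (median, log2) below the other retina controls in that library and 0.30 above them in control replicate 2. Among the retina Abca4Ko libraries they lay 0.34 above the others in replicate 3, where Impg2 was highest, and 0.32 below in replicate 1. Across the 10 members the retina genotype change had a Pearson r of 0.56 and a Spearman rho of 0.70 with coding length, as a description over genes that share their libraries, and the part of length was not tested.

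The other members of the retina comparison had wide intervals. Prom1 (0.36), Impg1 (0.39), Fam161a (0.20) and Cdhr1 (0.12) were above 0 and Prph2 (-0.19), Rom1 (-0.14), Rp1l1 (-0.13) and Tulp1 (-0.26) below. The intervals of these 8 all included 0, with the lowest bound at -0.78 and the highest at 0.97. Retina Abca4Ko libraries spread more than controls for the rim genes, since Rom1 stood at 4455, 2846 and 2186 CPM there. The rod marker sum went the same way, with 126089, 85717 and 67333 CPM in Abca4Ko and 103208, 84388 and 105393 CPM in control retina. Of other cell types, 9 of 10 cone markers had values below 0 in this comparison (median -0.30, 2 at an unadjusted p under 0.05, summed level 1177 to 1388 CPM in Abca4Ko and 1315 to 1775 CPM in control), as did 8 of 8 pigment epithelium markers (median -0.68, 76.0 to 171 against 132 to 352 CPM) and 3 of 3 blood markers (median -0.85, 42.3 to 89.5 against 53.1 to 147 CPM), with 0 of these called. The part of rod, cone, pigment epithelium and blood messages in the members' values was not tested. In bulk libraries a smaller share of rods and less RNA per rod cannot be told apart.

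**Figure D4:**
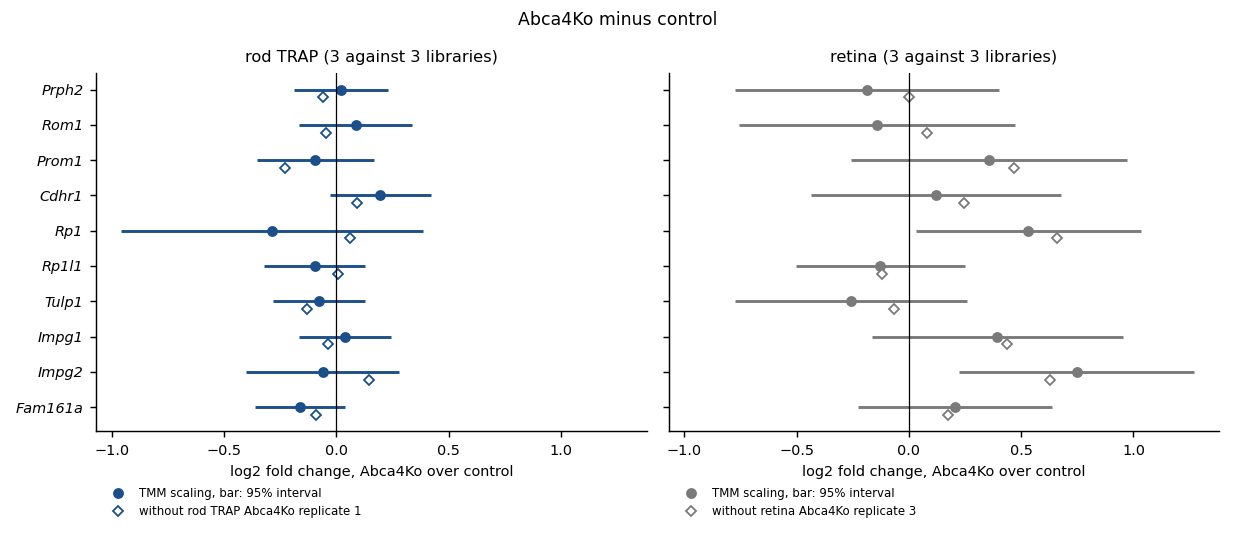
Log2 fold change of Abca4Ko over control (x axis) for the 10 genes (y axis) in rod TRAP and retina, with filled circles and 95% intervals for all libraries and open diamonds without rod TRAP Abca4Ko replicate 1 (left) or without the partly Abca4-positive retina Abca4Ko replicate 3 (right). None was called with all libraries, and only the retina intervals of Rp1 and Impg2 excluded 0.

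None of the related lists had a call by genotype in either fraction, with 14 disc and 20 axoneme genes tested in both, and 5 matrix genes in rod TRAP and 10 in retina. At an unadjusted p under 0.05 there were 1 disc and 2 axoneme genes in rod TRAP and 4 disc and 5 axoneme genes in retina, where the shares over all genes were 10.4% and 12%. In retina 9 of 14 disc genes (median 0.24) and 16 of 20 axoneme genes (median 0.29) had values above 0, against 1 of 10 matrix genes (median -0.13). In rod TRAP 7 of 14 disc, 11 of 20 axoneme and 3 of 5 matrix genes did, with medians of 0.002, 0.01 and 0.04. The smallest p-values in rod TRAP belonged to Cep162 (-0.35), Rp2 (0.25), Atp8a2 (-0.18), Gucy2e (-0.16), Efemp1 (0.42) and Rbp3 (-0.10). In retina they belonged to Arl13b (0.77), Rp2 (0.85), Tmem30a (0.75), Cnga1 (0.77), Bcan (-0.46) and Cd44 (0.38). All had a limma adjusted p of 0.361 or more.

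Whether the genotype difference itself differed between rod TRAP and retina was tested as an interaction over all 12 libraries. It was called for 0 of the 10 members, where 0.00579% of 17273 genes tested (1 gene) was called and 11.3% had an unadjusted p under 0.05. Rp1 (-0.84, 95% interval -1.65 to -0.03) and Impg2 (-0.83, -1.52 to -0.15) had an unadjusted p of 0.0427 and 0.0204 and a limma adjusted p of 0.431 and 0.407. Without rod TRAP Abca4Ko replicate 1 they were -0.47 and -0.60. The other 8 lay between -0.48 for Prom1 and 0.20 for Rom1.

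Beyond the groups, the members varied from library to library in separate sets. Each library's log2 CPM was taken relative to its group mean, and the genes were compared over the 12 libraries, as a description with no test, since the points share libraries, scaling and depth. Prph2 and Rom1 went together most closely (r = 0.98), and the other pairs among these and Tulp1 and Cdhr1 had r = 0.82 to 0.95. Prom1 and Impg1 had r = 0.96 with each other. Impg2, Fam161a, Rp1 and Rp1l1 had r = 0.69 to 0.92 among themselves. Between the rim genes and this last set r lay between -0.31 and 0.08. The matrix paralogs Impg1 and Impg2 had r = 0.52, so each was closer to genes of other structures than to its partner.

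The first set was moved most by the retina Abca4Ko libraries, where Rom1 in replicates 1, 2 and 3 stood at 1.47, 0.94 and 0.72 times its group mean. The last set was moved most by rod TRAP Abca4Ko replicate 1, where Rp1 stood at 0.59 and Impg2 at 0.72 times the group mean, and by retina control replicate 3, where they stood at 0.75 and 0.73 times. Retina Abca4Ko replicate 1 was high for Prph2, Rom1, Tulp1, Cdhr1, Prom1 and Impg1 alike.

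**Figure D5:**
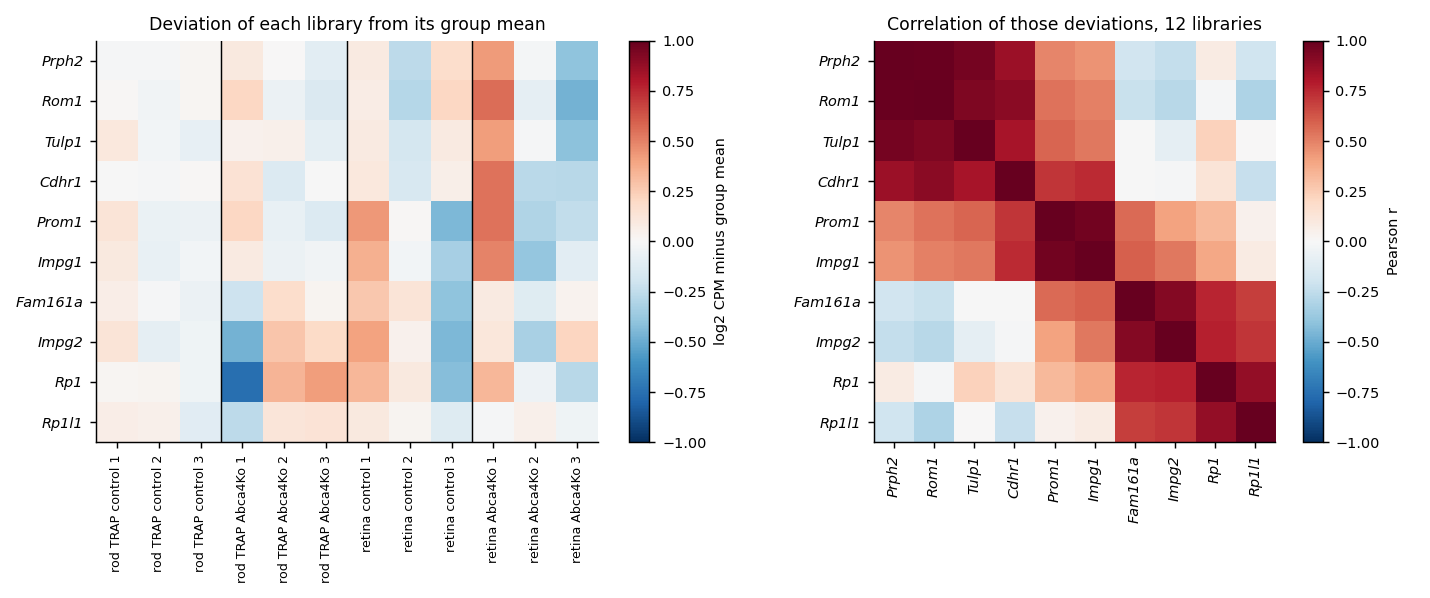
Left, log2 CPM of each gene (rows) in each library (columns) minus its group mean, in colour from blue (below) to red (above), and right, the Pearson r of these deviations between genes over 12 libraries. Prph2, Rom1, Tulp1 and Cdhr1 form 1 block and Fam161a, Impg2, Rp1 and Rp1l1 another, with Prom1 and Impg1 between them.

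Among 8317 other genes with a mean of at least 10 TPM, those whose deviations were most like each member's were the following, over the same 12 libraries. Prph2 was closest to Rtbdn (r = 0.99), which encodes retbindin, and Impdh1 (0.99), and Rom1 to the ribosomal protein gene Rpl8 (0.996) and the rod transducin gene Gnat1 (0.995). Tulp1 was closest to Gm9918 (0.98) and Bpgm (0.98), and Cdhr1 to Lpcat2 (0.98) and Gm6916 (0.98). Prom1 was closest to the complexin Cplx4 (0.98) and Eif3e (0.98), and Impg1 to Cab39l (0.98) and Dnajc2 (0.98). For Impg2 these were Chd1 (0.98) and Creb1 (0.97), for Rp1 Zfp292 (0.98) and Setd2 (0.96), for Rp1l1 Bbs1 (0.97) and Zbtb5 (0.95), and for Fam161a Pcdh15 (0.98) and Slc35a1 (0.98). With so many genes and few libraries high values are found for every member.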

How the data were processed

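Per the labels, polyA RNA from retinal lysate (5 ng) and rod TRAP (10 ng) was converted with a low-input SMARTer kit, sheared and made into libraries. The authors deposited 2 tables with 1 column per library. The first holds a score, named scaled count here: read counts that the authors had multiplied by 1 factor per library, to a common total within a fraction, and rounded. This was read from the values, whose totals lie between 17096515 and 17097707 in rod TRAP and between 17860761 and 17862326 in retina. The spacing of low values showed the reads behind them clearly for 5 of 12 libraries, at 14800000 to 23200000 reads, so counting error is small beside the spread between libraries for the members. The second table holds TPM made by the authors to 1 decimal. The submitters' processing notes name the build GRCm39 and CASAVA 1.8.2, HISAT2, DESeq2 and edgeR, with no roles or parameters. How reads shared by paralogs were assigned is not given in the sources used here.

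Scaled counts were divided by library totals and by trimmed mean of M values factors (trims 0.3 and 0.05) and taken as log2(CPM + 0.5). Genes with at least 10 scaled counts in at least 3 libraries of a fit were tested with limma 3.58.1 (trend, robust) in R 4.3.3, two-sided, with Benjamini-Hochberg adjustment over all genes tested and a threshold of 0.05. Each comparison used its own 6 libraries and the interaction used all 12. Fold changes understate the change of genes near 0. The steps were tested on simulated data. Other steps used Python 3.11.15, numpy 2.4.6, pandas 2.3.3, scipy 1.17.1 and matplotlib 3.10.9. The members and the lists (14 disc, 20 axoneme and 12 matrix genes, and cell type markers) were chosen with earlier results of these data known. All members were named, of each list up to 4 called genes with the largest change (or, with none called, the 2 with the smallest p), and for each member the 2 genes most like it. Of genes outside this rule, the control values of some list genes, and Pcare, Prcd, Ift140, Wdr90, Egflam, Rbp3 and Mfge8, were added after their values were seen. The values of 1 gene of the disc list are not reported here. Coding lengths from GENCODE M21 were used in place of the protein lengths that had been planned. Start regions came from RefSeq (GRCm38.p6).

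Whether equal replicate numbers pair the libraries was checked by the correlation of deviations from group means. Between the fractions of a genotype it was 0.212 to 0.376 in control and 0.276 to 0.606 in Abca4Ko over the 3 equal numbers. For unequal numbers it was at most 0.003 in control. In Abca4Ko it reached 0.375, between rod TRAP replicate 2 and retina replicate 3. Retina libraries of different genotypes reached 0.463 (Abca4Ko replicate 2 with control replicate 3). These correlations alone cannot settle whether the numbers pair the fractions. Lens markers and the remaining Abca4 did go by number in both fractions. Lens sums in rod TRAP were 77.4 to 98.3 CPM in the numbers that were high in retina and 1.00 to 2.49 CPM in the others. Abca4 was partly kept in Abca4Ko replicate 3 of both fractions, at 23.5% and 21.3% of the control mean. The main fits used no pairing. A fit with the number as a block was run beside each comparison.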

Additional observations from a re-analysis of the deposited data

How the results depend on the processing

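Each comparison was repeated with 3 other scalings, TPM, another pseudocount, no filter, no trend, 1 fit of all libraries, the replicate block and each library left out. The replicate block changed no call of a member (10 and 10 called between the fractions, 0 by genotype and in the interaction). Between the genotypes, libraries of equal number did not go together (their deviations had r of -0.189 to 0.110 in rod TRAP and, in retina, of -0.485 to 0.0012). There the block moved the calls over all genes from 148 to 151 and from 18 to 46.

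In the fraction comparisons the rod marker scaling gave 7 called members in control and 4 in Abca4Ko in place of 10 and 10. It reversed Prph2 (-0.28 and -0.17), Rom1 (-0.34 and -0.21), Rp1l1 (-0.035 and -0.10) and Tulp1 (-0.43 and -0.34) in control and Abca4Ko and Fam161a (-0.42) in Abca4Ko. The authors' scaling alone left 9 called in Abca4Ko, with Fam161a at 0.38 (limma adjusted p = 0.0538), and moved the median of all genes to -0.62 in control and -0.49 in Abca4Ko. The median of all genes was -0.13 with median-of-ratios factors and -0.25 with TPM in control. No left-out library changed a call of a member there.

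In rod TRAP by genotype, values near 0 changed sign for Prph2 with the rod marker scaling (-0.036), TPM (-0.044) and 1 fit of 12 libraries (-0.011), and for Impg1 with the rod marker scaling (-0.019) and TPM (-0.021). With a library left out, 0 to 1 members were called, and values ran from -0.060 to 0.084 for Prph2, -0.047 to 0.17 for Rom1, -0.48 to 0.062 for Rp1, -0.16 to 0.0058 for Rp1l1, -0.036 to 0.086 for Impg1 and -0.18 to 0.14 for Impg2. Calls over all genes were 594 without Abca4Ko replicate 1, 30 to 36 without a control and 102 and 121 without Abca4Ko replicates 2 and 3, and were 42 with the rod marker scaling or without trend, 58 with TPM and 94 in 1 fit. In retina the corresponding ranges were -0.38 to 0.0022 for Prph2, -0.40 to 0.080 for Rom1 and -0.14 to 0.26 for Cdhr1, and calls over all genes were 1 without Abca4Ko replicate 1 or control replicate 3, 4 without Abca4Ko replicate 2, 10 and 13 without control replicates 1 and 2, 21 without Abca4Ko replicate 3, 38 with TPM, 33 with no filter, 62 in 1 fit and 12 to 18 with the other scalings, the other pseudocount and no trend.

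In the interaction, Rp1l1 changed sign with median-of-ratios factors (-0.046), the rod marker scaling (-0.062) and TPM (-0.020), and Cdhr1 with the rod marker scaling (-0.017). With a library left out, values ran from -0.020 to 0.35 for Prph2, -0.031 to 0.44 for Rom1, -0.089 to 0.28 for Cdhr1, -0.089 to 0.14 for Rp1l1 and -0.047 to 0.32 for Tulp1. Without both libraries of 1 number, Cdhr1 was at -0.015 (Abca4Ko replicate 2), -0.085 (Abca4Ko replicate 3) and -0.0022 (control replicate 1), and Rp1l1 at -0.033, -0.086 and -0.011. Of 860 refits of single members in all, 807 kept direction and side of the threshold. The causes of these changes were not tested. With 3 libraries a group, the width of the intervals limits what the genotype comparisons can show.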
